A study of Homo sapiens with 7 samples.

Results

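RUNX2 occupied a set of sites away from gene ends that were bound and acetylated in one T-cell acute lymphoblastic leukemia (T-ALL) line, PER-117, and had neither call in a second T-ALL line, KARPAS-45. They were chosen from 4 deposited lists. A RUNX2 peak of PER-117 was kept when no KARPAS-45 RUNX2 peak overlapped it, when its midpoint lay more than 1 kb from both ends of every protein-coding gene, and when its midpoint lay inside an H3K27ac region of PER-117 and outside every H3K27ac region of KARPAS-45. Of 21027 PER-117 RUNX2 peaks on chromosomes 1 to 22 and X, 7644 had no KARPAS-45 peak over them, 6379 of these were distal, and 2948 met the last condition. These 2948 peaks are the members, 46.2% of the distal PER-117-only peaks (Wilson 95% interval 45.0% to 47.4%). The other distal PER-117-only peaks comprised 1614 with acetylation in each line, 202 with acetylation in KARPAS-45 alone and 1615 without any. Line-private binding, acetylation and distance are thus what selected the members, and are not results.

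The study set PER-117, grown with 10% fetal bovine serum, beside KARPAS-45, a line with a KMT2A rearrangement grown with 20% serum, and asked about dependence on RUNX2 in immature and KMT2A-rearranged T-ALL. Each line gave 1 RUNX2 and 1 H3K27ac chromatin immunoprecipitation library, and the other 3 of the 7 samples were inputs without a peak list. With 1 library per line and antibody there is no replicate spread and no test between the lines, so each difference is one between libraries, and intervals cover counting error only. The lists were unequal in size, and depth is not given in the sources used here. The H3K27ac lists also reached down to unlike significance, with a lowest −log10 q of 1.01 in PER-117 and 0.43 in KARPAS-45. For the RUNX2 lists it was 1.30 in PER-117 and 1.31 in KARPAS-45. PER-117 had 21027 RUNX2 peaks and 53263 H3K27ac regions covering 76.2 Mb, against 42911 RUNX2 peaks and 63265 H3K27ac regions covering 167 Mb in KARPAS-45. Of 13 T-cell markers such as CD3E, LCK and BCL11B, 12 were acetylated at a gene end in PER-117, all but CD5, and 13 in KARPAS-45. Of 7 non-blood markers, 0 were acetylated in PER-117 and 5 in KARPAS-45.

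RUNX2 belongs to the Runt-domain transcription factors, which bind DNA with the partner CBFB at sites with the core TGTGGT and act as activators or repressors according to their cofactors. It is best known as the regulator that commits cells to bone, while RUNX1 and RUNX3 are the family members most studied in T-cell development. H3K27ac, acetylation of lysine 27 of histone H3, marks active promoters and enhancers, and enhancers away from promoters differ more between cell types than promoters do. A distal site is named here after the protein-coding gene that contains it or, where none does, after the gene with the nearest end, and neither makes that gene its target.

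Sequence could be read for those members that reach an annotated start, since a gene can have starts deep inside its span. Promoter windows of 300 bases, 250 before to 50 after a start, came from RefSeq on GRCh38.p14. Of the members, 67 (2.27%) overlapped 78 such windows, 35 of protein-coding genes and 43 of long noncoding RNA genes, and 38 had their summit inside one. The 6 printed here are windows that hold the summit of a member and a copy of the RUNX core, in order of the fold enrichment of that member. They run 5′ to 3′ on the strand of the gene, and capitals mark TGTGGT or its complement ACCACA. HSH2D-AS1 is a noncoding RNA gene antisense to HSH2D, an adaptor protein of lymphocyte signalling (chr19:16139866-16140165, minus strand, member fold enrichment 27.5). NUDT1 codes for an enzyme that clears oxidised nucleotides (chr7:2249061-2249360, plus strand, 18.3). IL21R is the receptor for interleukin 21 (chr16:27427021-27427320, plus strand, 10.0), and LTA is the cytokine lymphotoxin alpha (chr6:31571849-31572148, plus strand, 7.59). LOC105378305 (chr10:52755355-52755654, minus strand, 14.9) and LINC01958 (chr2:156666350-156666649, plus strand, 7.75) are noncoding RNA genes.
HSH2D-AS1: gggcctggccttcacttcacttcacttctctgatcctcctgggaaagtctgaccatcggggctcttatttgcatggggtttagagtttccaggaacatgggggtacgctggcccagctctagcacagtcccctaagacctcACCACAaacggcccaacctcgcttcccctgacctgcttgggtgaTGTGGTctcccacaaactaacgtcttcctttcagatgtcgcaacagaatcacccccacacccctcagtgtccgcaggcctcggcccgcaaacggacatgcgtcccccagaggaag
NUDT1: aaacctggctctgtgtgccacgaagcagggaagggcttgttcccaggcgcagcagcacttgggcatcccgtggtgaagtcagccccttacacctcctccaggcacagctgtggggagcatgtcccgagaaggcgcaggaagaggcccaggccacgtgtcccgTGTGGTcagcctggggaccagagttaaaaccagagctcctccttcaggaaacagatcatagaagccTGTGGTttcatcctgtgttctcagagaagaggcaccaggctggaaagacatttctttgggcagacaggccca
LOC105378305: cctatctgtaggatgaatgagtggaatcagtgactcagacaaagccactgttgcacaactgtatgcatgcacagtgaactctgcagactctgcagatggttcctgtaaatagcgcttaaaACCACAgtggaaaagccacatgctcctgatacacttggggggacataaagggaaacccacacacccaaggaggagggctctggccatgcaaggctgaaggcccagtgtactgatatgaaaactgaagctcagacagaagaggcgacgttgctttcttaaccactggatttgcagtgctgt
IL21R: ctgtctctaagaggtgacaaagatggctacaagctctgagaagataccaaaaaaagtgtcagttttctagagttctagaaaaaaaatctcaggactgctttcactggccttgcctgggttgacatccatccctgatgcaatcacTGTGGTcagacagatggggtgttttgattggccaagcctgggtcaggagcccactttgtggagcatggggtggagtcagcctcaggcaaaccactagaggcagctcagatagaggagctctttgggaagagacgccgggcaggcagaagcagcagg
LINC01958: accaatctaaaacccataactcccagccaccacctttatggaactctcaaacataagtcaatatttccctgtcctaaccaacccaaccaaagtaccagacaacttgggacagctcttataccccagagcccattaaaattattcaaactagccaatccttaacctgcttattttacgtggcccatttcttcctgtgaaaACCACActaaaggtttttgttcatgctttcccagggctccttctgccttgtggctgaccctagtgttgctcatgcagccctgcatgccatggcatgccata
LTA: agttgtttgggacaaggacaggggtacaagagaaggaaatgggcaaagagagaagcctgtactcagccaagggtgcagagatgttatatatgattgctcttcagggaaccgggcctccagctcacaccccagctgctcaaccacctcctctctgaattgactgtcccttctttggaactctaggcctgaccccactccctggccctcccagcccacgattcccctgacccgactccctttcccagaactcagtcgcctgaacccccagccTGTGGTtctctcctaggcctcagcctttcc

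HSH2D-AS1 and NUDT1 each hold 2 copies of the core, and the other windows 1. In the LTA window the copy lies close to the annotated start, where the member's summit also falls. The core TGTGGT, read on both strands, was in 13 of the 45 windows that held the summit of a member (28.9%), against 13.1% of all 34961 windows. The 45 windows came from 38 members, some with more than 1 window, and 10 of the 38 had the core (26.3%). In windows that held the summit of a distal peak shared by both lines and acetylated in both, the share was 28.0% (101 of 361), close to that of the members, and in windows with the summit of any PER-117 RUNX2 peak it was 17.8%. The longer form TGTGGTTT, which contains the core, was in 4 of the 45 windows (8.89%), against 1.53% of all windows. It was in 6.65% of the 361 windows of shared peaks and 3.41% of windows with any PER-117 summit. CCGGAA, the core of ETS factors, was in 12 of the 45 (26.7%), against 17.3% of all windows, 28.5% of the 361 windows of shared peaks and 42.9% of windows with any PER-117 summit. The E-box CAGCTG was in 11 (24.4%), against 18% of all, 19.4% of the 361 and 16.5% of windows with any PER-117 summit. AGATAA, a form of the GATA site, was in 10 of the 45 windows (22.2%), against 10.3% of all windows. AGATAA was in 6.93% of the 361 windows of shared peaks and 5.67% of windows with any PER-117 summit. These are matches of letters in few windows, and windows of noncoding RNA genes make up a larger part of the members' windows than protein-coding ones.

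By the median, the members were stronger RUNX2 peaks than the other PER-117-only sites and weaker than the shared ones. Their fold enrichment, the authors' value for the peak over its background, had a median of 5.73 and ran from 2.20 to 41.9. The median was 4.56 for distal PER-117-only peaks acetylated in both lines, 4.91 for those acetylated in neither, and 6.84 for the 4777 distal peaks that were shared and acetylated in both. A fold enrichment of 10 or more was reached by 523 members (17.7%), against 6.63% of the peaks acetylated in both lines, 9.41% of those acetylated in neither and 1292 of the 4777 shared peaks.

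**Figure D1:**
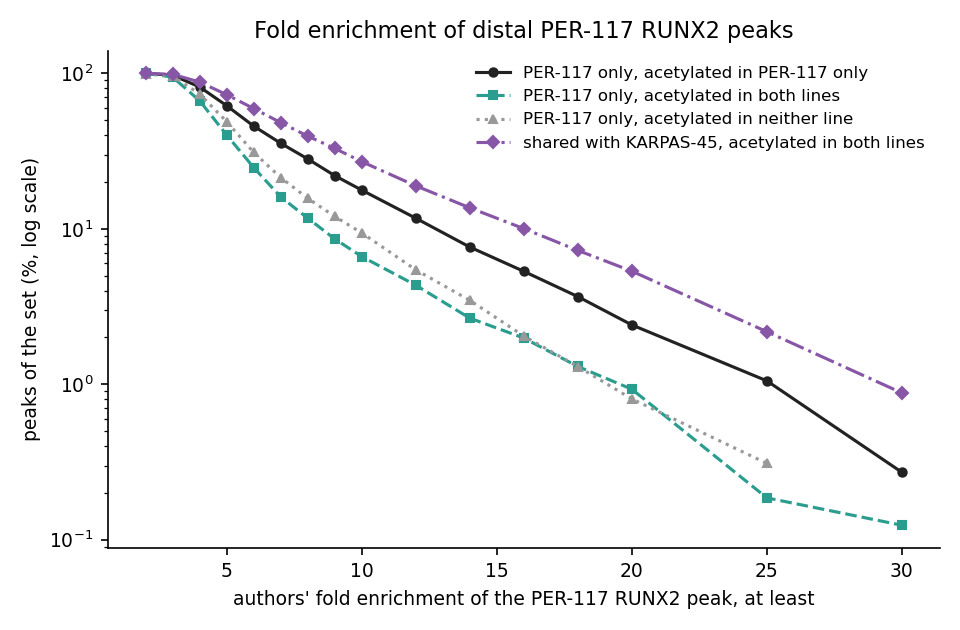
Share of each set of distal PER-117 RUNX2 peaks (%, log scale) whose authors' fold enrichment is at least the value on the horizontal axis. Points are thresholds; the members (black) lie between the shared peaks above them and the other PER-117-only peaks below, with 17.7% of members at 10 or more.

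The strongest members lay next to genes of very different roles. The first outside chromosome 8 was in PATZ1, a zinc-finger transcription factor, with a fold enrichment of 36.1 at chr22:31344125-31345109, and both marks were called in both lines at an end of PATZ1. The edge of this member's interval reached a KARPAS-45 H3K27ac region, as did that of 131 members in all. A KARPAS-45 RUNX2 peak lay 763 bp from the PATZ1 member. The next were near MMP2, a matrix metalloprotease (32.3, chr16:55435283-55435855), in PRIMPOL, a primase-polymerase that restarts stalled replication (32.3, chr4:184684531-184685216), and near XYLT1, which starts proteoglycan sugar chains (31.9, chr16:17473861-17474640). These 3 lay farther from KARPAS-45 acetylation than the PATZ1 member: 471 kb for MMP2, 7.66 kb for PRIMPOL and 927 kb for XYLT1. SLC37A1, a sugar-phosphate transporter of the endoplasmic reticulum, followed with 31.0 and ZBTB16 with 30.1. CTR9, a subunit of the PAF1 elongation complex, had 29.8, TNP1, a sperm chromatin protein, 29.0, PDZD2 28.7, CACNA1C, a calcium channel subunit, 28.6, RPN1, a subunit of the oligosaccharyltransferase, 28.3 and HORMAD2, a meiotic protein, 28.3. The member named after RPN1 lay in an H3K27ac region of 32.2 kb, the widest that held a member.

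Members varied in their distance from gene ends and from KARPAS-45 calls, both of which the rule bounds. Their median distance to the nearest protein-coding gene end was 32.4 kb, against 12.4 kb for PER-117-only peaks acetylated in both lines, 34.0 kb for those acetylated in neither and 15.5 kb for the shared peaks. More than 100 kb separated 740 members (25.1%) from any such end, and 25.9% of the peaks acetylated in neither line. Inside protein-coding genes lay 51.6% of members and 51.7% of PER-117-only peaks acetylated in neither line, against 68.2% of those acetylated in both and 62.0% of shared peaks. Outside all annotated genes lay 33.3% of members and 34.8% of the peaks acetylated in neither line. The nearest KARPAS-45 RUNX2 peak was a median of 20.5 kb away and the nearest KARPAS-45 H3K27ac region 24981 bp, and 829 members (28.1%) had no KARPAS-45 acetylation within 100 kb. A KARPAS-45 RUNX2 peak lay within 10 kb of 967 members (32.8%), and KARPAS-45 acetylation within 1 kb of 384 (13.0%). Peaks acetylated in neither line had medians of 23.8 kb and 27.6 kb, and 28.5% of them had no KARPAS-45 acetylation within 100 kb. At the edges of the rule, the member closest to a gene end was at P4HTM, at 1003 bp with a fold enrichment of 5.98, and a peak left out lay 990 bp from ADCYAP1 with 7.75. The midpoint of 76 members was within 100 bp of a KARPAS-45 H3K27ac region, and 5 members lay within 100 bp of a KARPAS-45 RUNX2 peak.

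By the median, the acetylated regions that held members were wider than all PER-117 regions and narrower than those of the compared sets. A wide region has more room to hold a peak. The 2948 members lay in 2629 PER-117 H3K27ac regions with a median width of 2488 bp, against 816 bp over all PER-117 regions. Regions holding PER-117-only peaks acetylated in both lines had a median of 3454 bp, and those with shared peaks 2801 bp. The authors' fold enrichment of the regions had a median of 4.25 for members, 5.74 for PER-117-only peaks acetylated in both lines, 5.22 for shared peaks and 2.92 over all regions. Of the 2629 regions, 256 held 2 or more members and 48 held 3 or more, up to 6 in 1 region at MTURN. A KARPAS-45 region touched 445 of them at another point, and 243 members shared their region with a RUNX2 peak common to both lines. Joined within 10 kb, the members formed 2465 groups, of which 2097 were single peaks, 290 were pairs and 57 held 3 members. The largest group outside chromosome 8 was again the one at MTURN, with 7 members over 17.1 kb. MTURN, known for a part in the maturation of neural progenitors and of megakaryocytes, had 9 H3K27ac regions in PER-117 and 3 in KARPAS-45. Groups of 6 lay at GFI1B and at ADGRD1, an adhesion G-protein-coupled receptor. BHLHE40, a transcription factor of activated T cells, had 5 members in a group of 17.0 kb, and 5 members stood within 7.77 kb at SIGLEC8, a lectin of eosinophils, and its neighbour CEACAM18.

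Genes collected the members unevenly. At least 1 member was assigned to 1770 of 19974 protein-coding genes (8.86%), and 3 or more to 246 genes (1.23%), which together held 1108 members (37.6%). A single member was assigned to 1208 genes, and 5 or more to 87 genes. Of 11084 genes with PER-117 acetylation at an end, 1176 (10.6%) had a member. The genes that collected members were long, with a median span of 66.4 kb, against 22.2 kb for genes with none, and 177.7 kb for the genes with 5 or more. A gene collects members that lie inside its span, so long genes have more room for them. Of the 25 genes with the most members, 19 spanned 100 kb or more. These 25 genes held 241 members (8.18%).

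**Figure D2:**
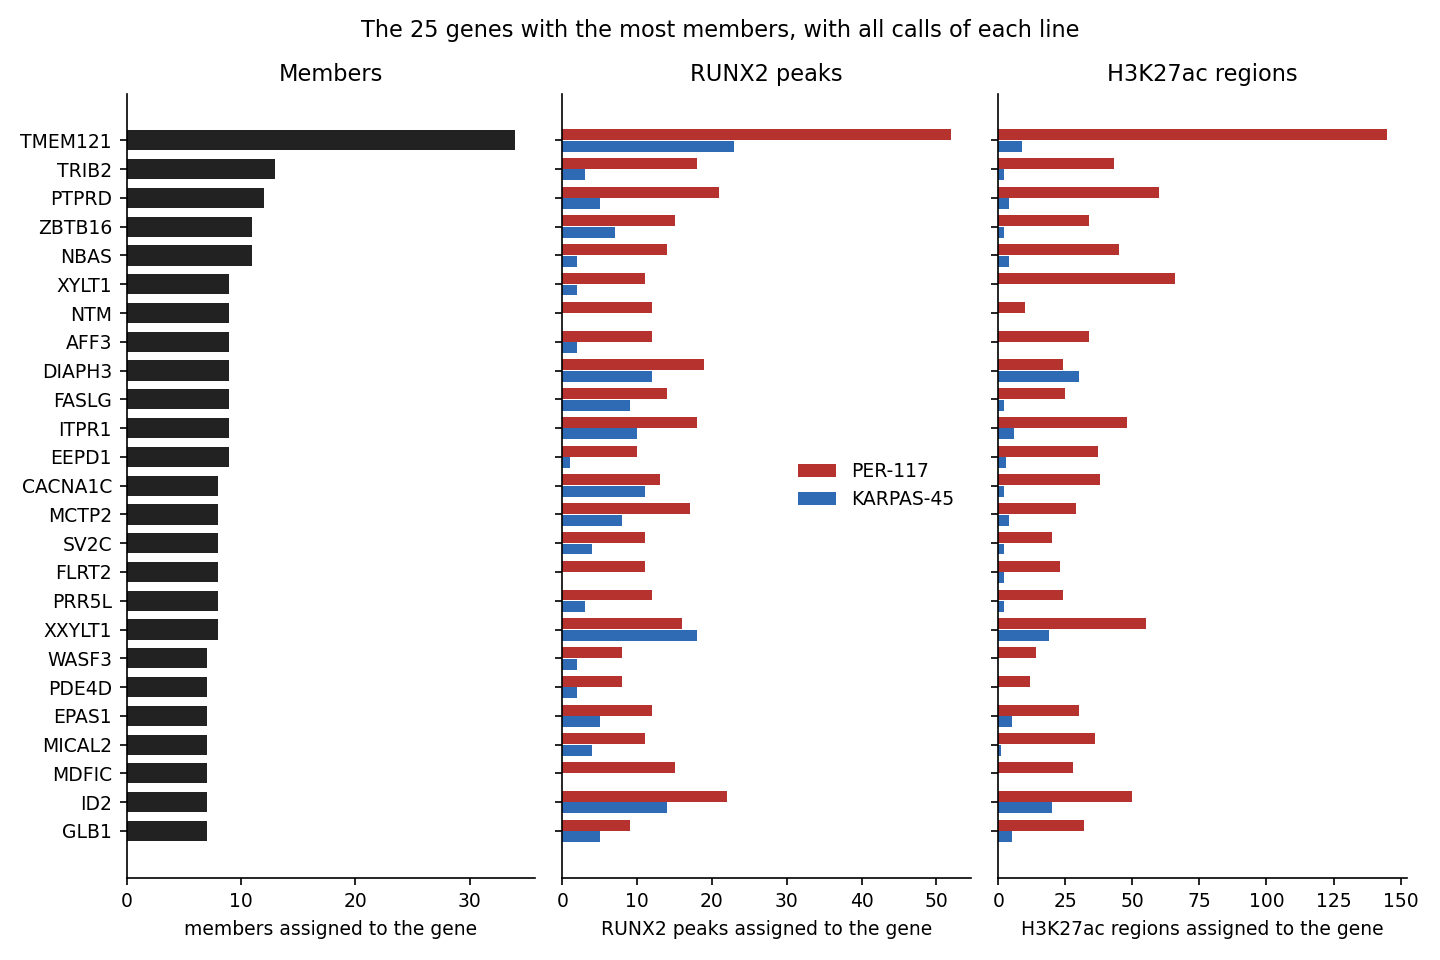
The 25 protein-coding genes with the most members outside chromosome 8. Bars give the members assigned to each gene (left), all RUNX2 peaks (middle) and all H3K27ac regions (right) of PER-117 (red, upper bar) and KARPAS-45 (blue, lower bar). H3K27ac regions number 24 in PER-117 against 30 in KARPAS-45 at DIAPH3, and 66 against 0 at XYLT1; genes tied at 7 members were ordered by their highest fold enrichment, which left out MTURN.

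TMEM121 led the count with 34 members only through its place beside the immunoglobulin heavy chain locus. All 34 lay inside that locus, up to 1344 kb from TMEM121, because immunoglobulin segments are not annotated as protein-coding genes. The locus (IGH, chr14:105586437-106879844) carries the constant genes and the diversity (D), joining and variable (V) segments that B cells rearrange into antibody genes, and D segments are also rearranged in many immature T-cell leukemias. In IGH, PER-117 had 52 RUNX2 peaks and 143 H3K27ac regions covering 257 kb, against 20 RUNX2 peaks and 6 H3K27ac regions covering 6.52 kb in KARPAS-45. Of the 52 PER-117 peaks, 12 overlapped a KARPAS-45 peak. The members' fold enrichment ran from 3.15 to 24.1, with a median of 5.69, and 24 of the 34 were within 1 kb of an annotated segment. These calls lay mainly in the D and V segments. The constant genes held 0 members, 1 RUNX2 peak and 3 H3K27ac regions covering 4.04 kb in PER-117, against 1 peak and 0 regions in KARPAS-45. Calls were counted by midpoint, and none had its midpoint in the joining segments. PER-117 H3K27ac regions with midpoints outside reached into these segments, and no KARPAS-45 region did.

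The D segments held 5 members in 54.0 kb, with 9 H3K27ac regions covering 41.8 kb in PER-117 and 0 regions in KARPAS-45. Of these 5, 4 lay at a like distance from a segment of the IGHD1 family, which recurs along the repeated units of the D cluster: 1085 bp from IGHD1-26 (fold enrichment 11.6), 1027 bp from IGHD1-20 (24.1), 1195 bp from IGHD1-14 (10.0) and 1189 bp from IGHD1-7 (14.9). Neighbours among them were 10.2 kb, 9.28 kb and 9.28 kb apart. The V segments held 29 members, with 45 RUNX2 peaks and 126 H3K27ac regions in PER-117, against 18 peaks and 6 regions in KARPAS-45. Within V segments themselves lay 9 members, 6 of them in the IGHV1 family. Of 15 annotated IGHV1 segments, 8 had a member within 1 kb, against 10 of 48 segments of the IGHV3 family. The count was 1 of 22 in the IGHVII family and 0 of 17 in the IGHVIII family. The strongest V member, in the IGHV1 family, had a fold enrichment of 13.1. Segments of a family are similar copies whose reads can be shared between them, and how such reads were placed is not given in the sources used here, so members within a family may not be separate measurements.

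**Figure D3:**
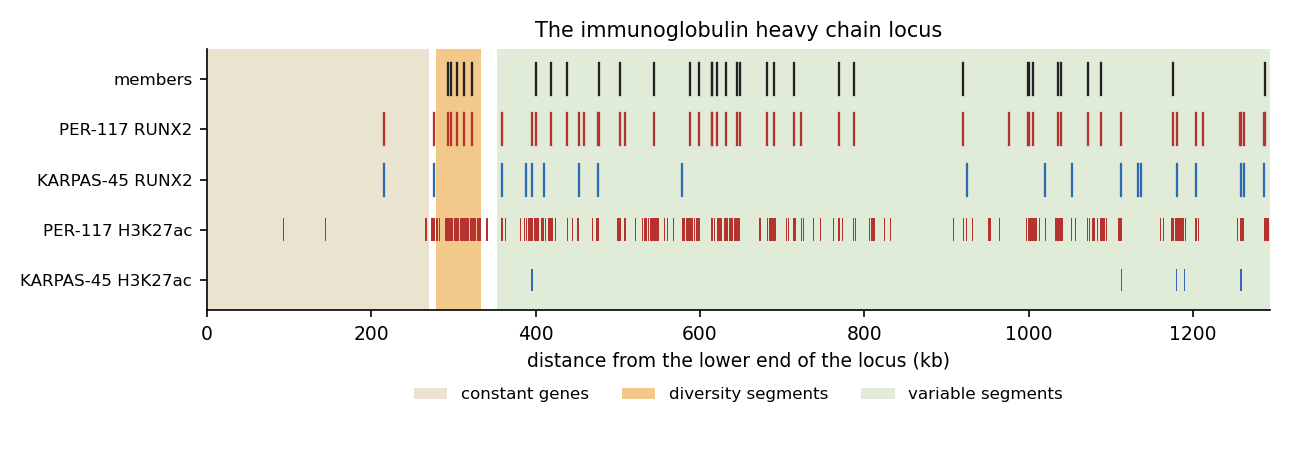
Calls along the immunoglobulin heavy chain locus by distance from its lower end (kb). Rows show the members, then RUNX2 peaks and H3K27ac regions of PER-117 (red) and KARPAS-45 (blue), over shading for the constant genes, D segments and V segments; PER-117 H3K27ac regions cover 41.8 of 54.0 kb of the D segments and 205 of 940 kb of the V segments, where KARPAS-45 has 0 and 6 regions.

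The other antigen receptor loci held few members. The T-cell receptor alpha locus had 4, of which 1 lay in the delta locus inside it, the beta locus had 2, and the gamma, immunoglobulin kappa and immunoglobulin lambda loci had 0. At the lambda locus PER-117 had 9 RUNX2 peaks and KARPAS-45 had 23, and at the kappa locus neither line had one.

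The genes with the most members included regulators of blood and lymphoid cells. ZBTB16, also called PLZF, the transcription factor that directs innate-like lymphocytes, collected 11 members, all inside the gene. Their fold enrichment ran from 3.73 to 30.1, and the strongest lay at chr11:114082748-114083384, in an H3K27ac region of 21.6 kb, with a second at chr11:114216817-114217210 (25.6). At ZBTB16 PER-117 had 15 RUNX2 peaks and 34 H3K27ac regions covering 92.6 kb, against 7 RUNX2 peaks and 2 H3K27ac regions in KARPAS-45. The ends of ZBTB16 were acetylated in PER-117 only, while RUNX2 stood at an end in KARPAS-45 only. TRIB2, a pseudokinase that can drive leukemia in mice, collected 13 members, none of them inside the gene. PER-117 had 18 RUNX2 peaks and 43 H3K27ac regions assigned to TRIB2, against 3 and 2 in KARPAS-45, and both marks were called at its ends in both lines. AFF3, a relative of the elongation factor AFF1 and a rare partner in KMT2A fusions, had 9 members and 34 H3K27ac regions in PER-117 and 0 regions in KARPAS-45. FASLG, the death ligand of cytotoxic lymphocytes, had 9 members of lower fold enrichment, 3.82 to 10.9, none of them inside the gene. Both marks stood at the ends of FASLG in PER-117 only. KARPAS-45 had 9 RUNX2 peaks assigned to FASLG and 2 H3K27ac regions. ID2, which blocks E proteins and favours innate lymphocytes, had 7 members, none inside the gene and the closest 96.0 kb away. PER-117 had 50 H3K27ac regions assigned to ID2, against 20 in KARPAS-45, and the ends of ID2 were acetylated in both lines. MDFIC, a regulator of transcription factors and of Wnt signalling, was without KARPAS-45 calls: 15 RUNX2 peaks, 7 of them members, and 28 H3K27ac regions were assigned to it in PER-117, and 0 of either in KARPAS-45.

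**Figure D4:**
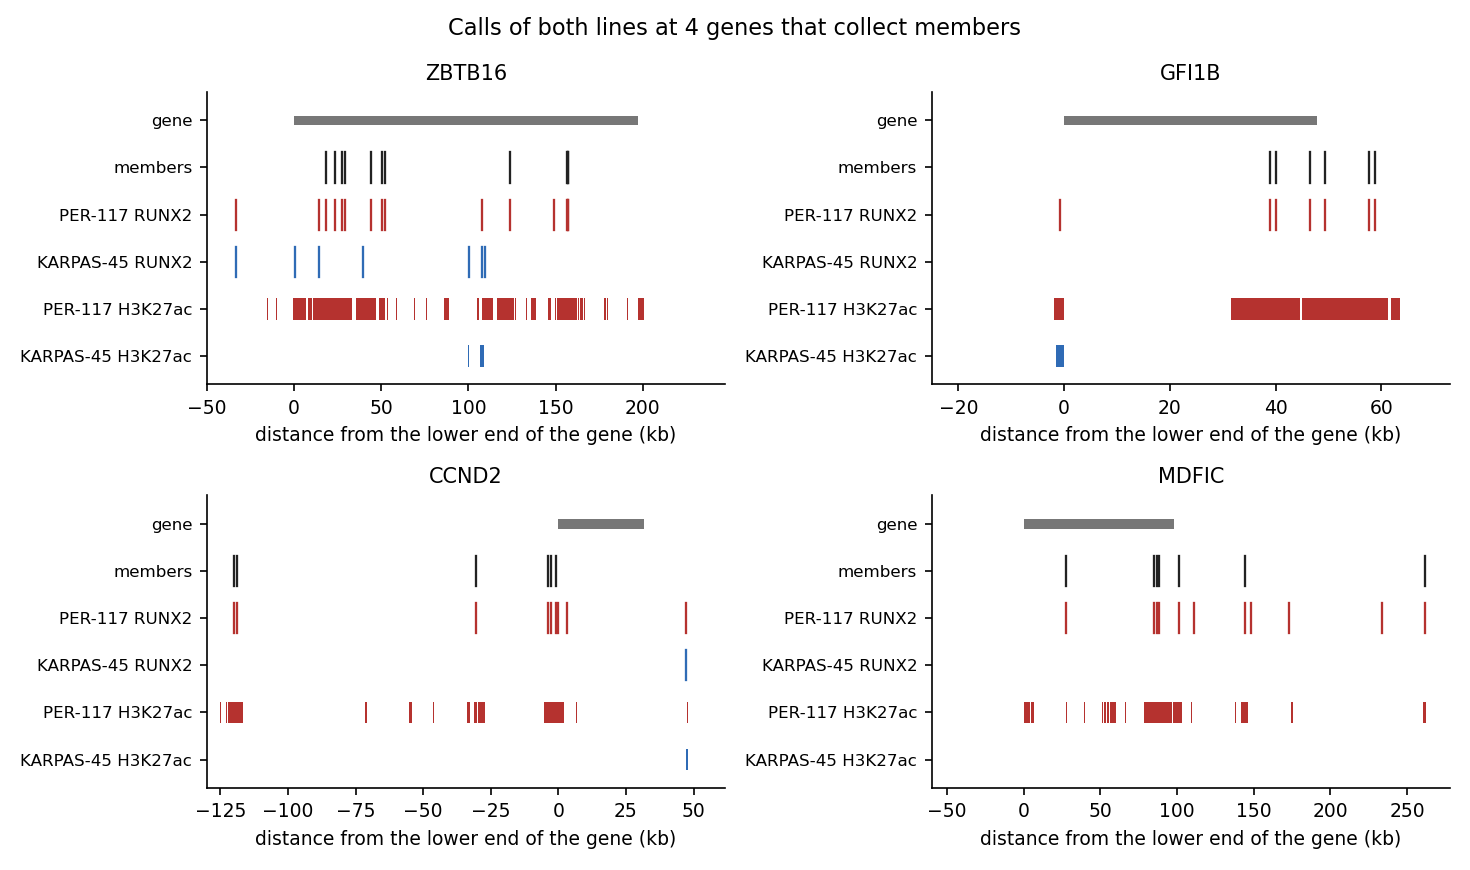
Calls at ZBTB16, GFI1B, CCND2 and MDFIC by distance from the lower end of each gene (kb), with the gene in grey, members in black, PER-117 in red and KARPAS-45 in blue. The rule places the midpoint of every member inside a PER-117 H3K27ac region, and these regions vary in width. Within the stretch drawn, KARPAS-45 has 7 RUNX2 peaks at ZBTB16, 1 at CCND2 and none at GFI1B or MDFIC.

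The rest of the 25 included signalling, metabolic and adhesion genes. ITPR1, the calcium channel of the endoplasmic reticulum opened by inositol trisphosphate, had 9 members with 48 H3K27ac regions in PER-117 and 6 in KARPAS-45. PDE4D, which degrades cyclic AMP, had 7 members and 12 H3K27ac regions in PER-117, against 0 in KARPAS-45. PRR5L, a partner of the kinase complex mTORC2, had 8 members, EPAS1, the oxygen-regulated factor HIF-2alpha, 7, and EEPD1, an endonuclease of DNA repair, 9. XYLT1 had 9 members with 66 H3K27ac regions in PER-117, against 0 in KARPAS-45, and XXYLT1, which extends the sugars on Notch, had 8 with 55 regions in PER-117 and 19 in KARPAS-45. Several were genes studied mainly in nerve or muscle. PTPRD, a receptor tyrosine phosphatase, had 12 members, NTM, a neural adhesion molecule, 9, FLRT2, another adhesion molecule, 8, SV2C, a protein of synaptic vesicles, 8, and CACNA1C 8. The FLRT2 members all lay outside the gene, the closest 159 kb away. NTM had 12 RUNX2 peaks and 10 H3K27ac regions in PER-117 and 0 of either in KARPAS-45, and neither line had a call at its ends. The ends of PTPRD, CACNA1C, SV2C and FLRT2 were without either mark in both lines. MICAL2 and WASF3, regulators of actin, and GLB1, the lysosomal beta-galactosidase, had 7 members each, NBAS, a protein of vesicle transport, had 11, and MCTP2, a calcium-binding membrane protein, had 8. DIAPH3, a formin that builds actin filaments, had 9 members, with 24 H3K27ac regions in PER-117, against 30 in KARPAS-45. Of the DIAPH3 members, 1 lay inside the gene and the others 134 kb or more from it. The rule favours genes with acetylation private to PER-117, so the numbers of regions at these genes are a description. Over the 25 genes, 6 had no KARPAS-45 H3K27ac region and 3 no KARPAS-45 RUNX2 peak. At their ends, 7 were acetylated in PER-117 only, 1 in KARPAS-45 only, 9 in both and 8 in neither.

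Across all genes, the ends of genes that collected members were more often acetylated in PER-117 only. The same lists chose the members, and although every member's midpoint lay over 1 kb from a gene end, the interval of 24 members and the acetylated regions around members could reach closer, so this is a description. Acetylation of a gene end in PER-117 only was found in 12.6% of genes with a member (223 of 1770, 11.1% to 14.2%), against 2.76% of genes with none and 3.63% of all genes. It was found in 9.77% of genes with 1 member, 16.5% of those with 2, 19.5% of those with 3 to 4 and 25.3% of those with 5 or more (22 of 87). Acetylation in KARPAS-45 only went the other way, with 5.31% of genes with a member, against 9.56% of genes with none and 9.18% of all. Both lines were acetylated at 53.8% of genes with a member and at 51.9% of all genes, and neither line at 35.3% of all. The same order stood in each class of gene length. For genes under 20 kb the share acetylated in PER-117 only was 16.4% with a member and 3.01% without, for those of 20 to 100 kb 13.0% with and 2.63% without, and for those of 100 kb or more 10.0% with and 2.28% without.

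Genes that collected other kinds of distal peak had lower shares. With genes that also had a member kept, acetylation in PER-117 only was at 8.01% of genes with a PER-117-only peak acetylated in neither line (6.67% to 9.59%). It was at 3.52% of genes with a PER-117-only peak acetylated in both lines and at 3.50% of those with a shared peak. Acetylation in PER-117 only was found at the ends of 3.11% of genes that collected a PER-117-only peak acetylated in both lines and no member, of 4.22% of genes with a peak acetylated in neither line and no member, and of 2.38% of genes with a shared peak acetylated in both and no member. For genes that collected the mirror set, the 9021 distal KARPAS-45-only peaks acetylated in KARPAS-45 only, the share in PER-117 only was 1.62%, and that in KARPAS-45 only 16.1%. The size of the difference depended on 2 choices. Without the PER-117 regions that themselves held a member and reached a gene end, the share was 9.77% of genes with a member (8.48% to 11.2%) and 2.73% of genes with none. That in KARPAS-45 only was then 8.25% of genes with a member (7.06% to 9.62%), beside 9.18% of all genes. With KARPAS-45 regions kept, widest first, only until they covered as much sequence as those of PER-117, the share in PER-117 only was 54.7% with a member and 39.6% without.

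RUNX2 in PER-117 only was also called more often at the ends of genes with members, without a steady order by their number. A RUNX2 peak in PER-117 only stood within 1 kb of an end of 7.85% of genes with a member and 2.92% of genes with none, against 3.35% of all genes. The share was 6.71% with 1 member, 10.1% with 2, 8.81% with 3 to 4 and 13.8% with 5 or more. With the members themselves left out of the PER-117 peaks, it was 7.40% of genes with a member (6.27% to 8.72%). RUNX2 in KARPAS-45 only stood at the ends of 18.4% of genes with a member and of 19.2% of genes with none. RUNX2 in both lines was called at 28.7% of genes with a member and 29.2% of all genes.

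**Figure D5:**
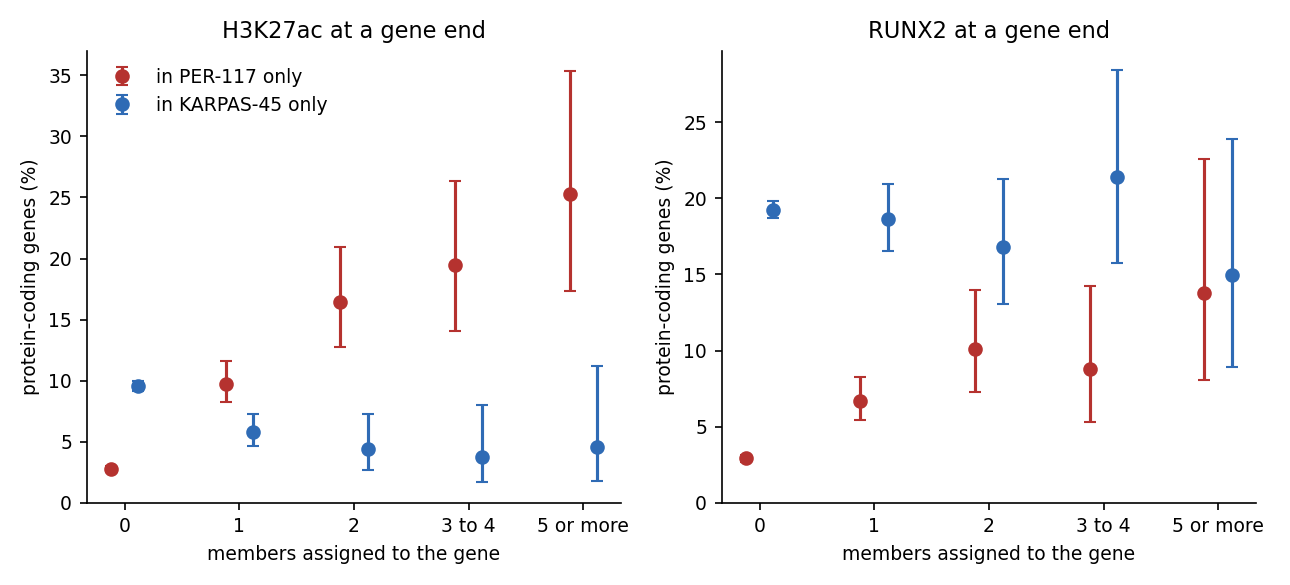
Share of protein-coding genes (%) with H3K27ac (left) or RUNX2 (right) called within 1 kb of a gene end in PER-117 only (red) or KARPAS-45 only (blue), by the number of members assigned to the gene. Bars are Wilson 95% intervals; H3K27ac in PER-117 only is at 2.76% with 0 members and 25.3% with 5 or more.

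Of 394 genes on 15 lists of blood and leukemia biology, 79 (20.1%) collected a member, against 8.86% of all protein-coding genes. The lists were drawn up with earlier results of these data known, so their counts are given beside that background and no more. Their median gene span ran from 12.9 kb for natural killer and cytotoxic genes to 168 kb for KMT2A-fusion targets, against 24.2 kb over all genes. The shares are not adjusted for gene length. The share was highest on the list of immature and progenitor genes, at 11 of 31 (35.5%, Wilson interval 21.1% to 53.1%), and lowest on the lists of bone genes, at 1 of 15, survival and cell-cycle genes, at 2 of 26, and B-lineage genes, at 2 of 25. The median gene on each list had 0 members.

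GFI1B, a transcriptional repressor needed for red cells and platelets, led the immature and progenitor genes with 6 members of fold enrichment 3.40 to 27.1. Its strongest member lay past the gene at chr9:133002625-133003527, in an H3K27ac region of 16.4 kb, and a neighbour at chr9:133003769-133004810 had 16.2. All 6 RUNX2 peaks assigned to GFI1B in PER-117 were members, KARPAS-45 had 0, and the 3 H3K27ac regions of PER-117 covered 31.1 kb against 0 regions in KARPAS-45. A RUNX2 peak stood at a gene end of GFI1B in PER-117 only, and both lines were acetylated there. That peak and those regions lie just outside the gene and are assigned to a neighbour, so the stretch drawn holds 7 PER-117 RUNX2 peaks and 1 KARPAS-45 H3K27ac region. MECOM, which codes for the stem cell factor EVI1, had 5 members with 7 RUNX2 peaks and 20 H3K27ac regions in PER-117 and 0 of either in KARPAS-45, and its ends were acetylated in PER-117 only. ERG, an ETS factor of blood stem cells, had 4 members and 20 H3K27ac regions in PER-117 against 1 in KARPAS-45. ZEB2, a repressor known from immature T-ALL, had 3 members, the closest 892 kb from the gene. KIT, the stem cell factor receptor, and MEF2C, an oncogene of immature T-ALL, had 2 each. CD34, a surface marker of progenitors, had 1 member with a fold enrichment of 20.1, while the ends of CD34 and KIT were acetylated in KARPAS-45 only. GATA2, NFE2 and IGF1R had 1 each, and at GATA2 and NFE2, factors of stem cells and of megakaryocytes, the ends were acetylated in PER-117 only. The progenitor genes thus differed among themselves in which line was acetylated at their ends: 4 of 31 in PER-117 only and 7 of 31 in KARPAS-45 only. Over all genes these shares were 3.63% and 9.18%.

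Of 40 T-lineage genes, 11 had a member (27.5%, against 8.86% of all genes). Of the 40, 0 were acetylated at an end in PER-117 only and 10 in KARPAS-45 only. Over all genes these shares were 3.63% and 9.18%, so 0 of 40 is near the share over all genes. SATB1, a chromatin organiser of T-cell development, and ETS1 had 3 members each, the closest 136 kb and 276 kb from the gene. PRKCQ, a kinase of T-cell receptor signalling, had 2, and BCL11B, IL7R, LEF1, GATA3, CD28 and NFATC1 had 1 each. BCL11B had 15 RUNX2 peaks in PER-117, against 51 in KARPAS-45, and SATB1 had 10 in PER-117 and 16 in KARPAS-45. All 10 T-lineage genes with members outside chromosome 8 had more RUNX2 peaks in KARPAS-45 than in PER-117. For H3K27ac regions, 6 of these 10 had more in PER-117 than in KARPAS-45. Of the 23 T-ALL transcription factors, 5 had a member, among them RUNX1 with 2 and RUNX3, ETV6 and TCF3 with 1 each. The RUNX1 members lay 426 kb and 427 kb from the gene, beside 18 RUNX2 peaks assigned to it in PER-117, against 40 in KARPAS-45. RUNX1 and RUNX3 also stood among the 5 of 24 genes for the RUNX family and its cofactors, with the corepressors TLE4 (3 members) and TLE3 (2) and the deacetylase HDAC4 (1). KMT2A-fusion targets collected members at 6 of 24 genes, namely ZEB2, RUNX1, BCL2, MEF2C, SUPT3H and PBX3.

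CCND2, the cyclin that drives entry into the cell cycle in lymphocytes, collected 6 members, and both marks stood at its ends in PER-117 only. PER-117 had 9 RUNX2 peaks and 16 H3K27ac regions assigned to CCND2, against 1 of each in KARPAS-45. Its strongest member, with a fold enrichment of 14.9, lay 30.4 kb from the gene at chr12:4243066-4243704, and 3 lay within 4 kb, among them one at 1048 bp, just inside the rule. BCL2, the inhibitor of cell death, had 2 members in the gene, with 11 RUNX2 peaks and 19 H3K27ac regions in PER-117, against 19 peaks and 28 regions in KARPAS-45. The 2 genes were the survival and cell-cycle genes with a member, of 26 listed (7.69%, near the 8.86% of all genes).

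Among receptors and signalling genes, 11 of 37 cytokine receptors and JAK-STAT genes had a member. Acetylation at an end in PER-117 only was called for 6 of the 37, beside 3.63% of all genes. IL21R had 3 members, 1 of them with its summit in the promoter window whose sequence is given, and the strongest, with 15.8, at chr16:27430878-27431892. IL2RA, the high-affinity chain of the interleukin 2 receptor, had 3, with 7 H3K27ac regions in PER-117, against 1 in KARPAS-45, and its ends were acetylated in PER-117 only. SOCS2, a brake on cytokine signalling, had 2, and STAT4, IL1R1 and CSF2RB were among the genes with 1. Of 37 PI3K, RAS and kinase genes, 10 had a member: SPRY1, an inhibitor of RAS signalling, had 5, PRKCH and RASGRP1, which act below the T-cell receptor, 4 each, and RASA1, which turns RAS off, 3. PIK3R1 had 3 and DUSP6 had 2. SPRY1 had 24 H3K27ac regions in PER-117, against 1 in KARPAS-45, and PIK3R1 had 28 in PER-117 and 27 in KARPAS-45. Of 34 chemokine receptors, integrins and adhesion genes, 7 had a member, with ITGA9 at 4 and VCAM1, CD58 and CD44 at 2 each. CD44, the hyaluronan receptor, had 12 H3K27ac regions in PER-117, against 0 in KARPAS-45, and its ends were acetylated in PER-117 only.

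Of 35 myeloid genes, 4 had a member: KLF4 and CEBPB had 3 each, HDC had 2 and CD33 had 1. The KLF4 members lay 440 kb or more from the gene. Of 25 B-lineage genes, CR2, a complement receptor of B cells, had 3, up to 16.1, with 5 RUNX2 peaks in PER-117, against 0 in KARPAS-45, while both marks stood at its ends in PER-117 only. IRF4, a factor of B-cell activation, had 2. Of 28 erythroid and megakaryocyte genes, 5 had a member, among them FLI1 with 3, up to 22.2. Of 24 natural killer and cytotoxic genes, 7 had 1 member each, among them the granzymes GZMA, GZMB and GZMK, NCAM1 and KLRG1. Of 15 bone genes, MSX2, a homeobox factor of the skeleton, had 3, all 267 kb or more from the gene. Of 20 non-blood genes, 2 had 1 each, SOX2 among them with a fold enrichment of 18.8, 177 kb from the gene. In the defining markers of the other cell types, acetylation at a gene end was called in PER-117 for 3 of 7 B-cell, 2 of 8 myeloid, 1 of 6 erythroid and megakaryocytic and 2 of 5 natural killer markers, against 3, 2, 1 and 1 in KARPAS-45.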

How the data were processed

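RUNX2 and H3K27ac were mapped by chromatin immunoprecipitation and sequencing in 2 cell lines. MACS2, STAR 2.4.2a and the build hg38 are named in the submitters' processing notes, without roles or settings. The authors deposited 1 list of 10 columns per library, with a display score, a fold enrichment (a linear ratio) and −log10 p and q values per peak. Those values were used as deposited, to describe and filter peaks within a list. Read counts, depth and the 3 inputs were not analysed here.

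Rows with the same interval were joined, chromosomes 1 to 22 and X were kept, and overlap meant at least 1 bp. Genes and promoter windows came from RefSeq tables of GRCh38.p14, with gene spans but no exons, so introns and exons were not resolved. A gene end was called bound or acetylated when a call lay within 1 kb of either end of the span. Samples were grouped by line and antibody from the labels. Shares have Wilson 95% intervals, and no test was run because each group is 1 library. The work was done in Python 3.11.15 with pandas 2.3.3, numpy 2.4.6, matplotlib 3.10.9 and scipy 1.17.1. The rule was checked on 2000 simulated peaks, all of which were classed as planted.

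The members, the gene lists and the settings were chosen with earlier results of these data known. Named genes are the 25 with the most members (ties broken by the highest fold enrichment), the genes of the 15 strongest members, up to 4 genes with members from each list and the genes of the 10 largest groups. Further genes were named to complete a small count, or as a limit of the rule, after their values were seen. Genes on chromosome 8 and some others that the rule names are not reported here. Alternatives changed the position used, the distances, the overlap, the q values, the lengths of the KARPAS-45 lists and the assignment to genes. Those without regions that hold a member, and without the members' own RUNX2 peaks, were added after the data were seen.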

Additional observations from a re-analysis of the deposited data

How the results depend on the processing

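No paired analysis was possible because each line and antibody has 1 library. The number of members stayed within 1.5 times of 2948 under every alternative but a RUNX2 −log10 q of 10 or more, which kept 1406 members, 58.9% of the distal PER-117-only peaks, with 1033 genes collecting 1 or more and 84 collecting 3 or more, a median fold enrichment of 8.71 and 49.6% inside protein-coding genes. The share of members among distal PER-117-only peaks was 50.1% when a KARPAS-45 RUNX2 peak within 1 kb counted as shared, 40.5% with a margin of 1 kb around KARPAS-45 H3K27ac, 49.0% with an H3K27ac −log10 q of 2 or more, and 38.0% with the KARPAS-45 RUNX2 list shortened to the number of PER-117 peaks. With KARPAS-45 H3K27ac cut to equal covered length it was 61.3%, with a median fold enrichment of 5.38 and 54.9% inside protein-coding genes. Counting only genes that contain a member left 987 genes with 1 or more, 101 with 3 or more and 33 listed genes. H3K27ac at a gene end in PER-117 only was at 14.7% of genes with a member in a window of 2.5 kb, at 9.77% without PER-117 regions that hold a member, and at 54.7% of genes with a member and 39.6% of genes with none at equal covered length. RUNX2 at a gene end in PER-117 only was at 10.7% of genes with a member in a window of 2.5 kb, and at 18.2% of genes with a member and 12.0% of genes with none with the shortened RUNX2 list. Of the 10 genes with the most members, 5 remained in the first 10 at a RUNX2 −log10 q of 10 or more, where TMEM121 had 13 members and ITPR1, PRR5L and WASF3 had 2 each, and 5 when only containing genes were counted, where TMEM121 had 0. Leaving the members out of the PER-117 RUNX2 list gave 7.40% of genes with a member. For the 25 named genes, 269 of 300 counts stayed within 1.5 times of the reported ones, and for the lists 155 of 180. The causes were not tested. Depth, antibody performance and thresholds can each set the length of a list, and none can be told apart from the lines here.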
